A study of Drosophila melanogaster with 24 samples.

Results

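The small heat shock genes Hsp22, Hsp23, Hsp26, Hsp27, Hsp67Ba and Hsp67Bc form 1 cluster at cytological position 67B on chromosome arm 3L. They were chosen by name, not by any measured value, and are 6 of 17684 genes on the 6 chromosome arms of the gene table used. Every peak that touched the cluster (3L, 9371511 to 9385694, genome build dm6) or lay within 10 kb of it was taken from 6 deposited peak lists, which gave 15 of 25738 peaks on the arms. Kc167 cells, an embryonic line of Drosophila melanogaster, had been used for chromatin immunoprecipitation with sequencing (ChIP-seq) to compare sites of the zinc-finger protein CLAMP with sites of insulator proteins. From mock cells there were 10 input libraries and 2 libraries per antibody, against CP190, Su(Hw), Mod(mdg4)2.2 and, with a pair of antibodies, CLAMP. Cells transfected with 5 ug of double-stranded RNA (dsRNA) against Clamp and kept for 6 days gave 2 inputs and 2 libraries with the second of the CLAMP antibodies. The first antibody is the one labelled clamp, and the second is the one labelled clamp-abcam. The labels name no heat treatment in any group. They do not say what mock cells received.

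Small heat shock proteins are chaperones that need no ATP. They share an alpha-crystallin domain and hold unfolding proteins in a soluble state until other chaperones refold them. In Drosophila the 67B genes are switched on by heat through the heat shock factor Hsf, and several are also switched on by the moulting hormone ecdysone during development. CLAMP and the GAGA factor both recognise GA-rich repeats, which are known from heat shock gene promoters. Su(Hw), Mod(mdg4) and CP190 make up the gypsy insulator complex, and CP190 also lies at many promoters without the other partners.

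Of the proteins mapped, CLAMP and CP190 had peaks at the cluster. The first CLAMP antibody had 4 peaks there, the second had 3, and CP190 had 5, with 3 more CP190 peaks in the lower flank. Su(Hw), Mod(mdg4) and the second CLAMP antibody after Clamp dsRNA had none, neither in the cluster nor within 10 kb. Each list came from 2 pooled libraries whose read numbers are unknown, so there was 1 list per group, no replicate error, and no test between groups. A missing peak means only that none passed the authors' threshold. Fold enrichment, which the authors give for each peak as its signal over local background, is therefore read within a list. All peaks of a list were ranked by it.

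**Figure D1:**
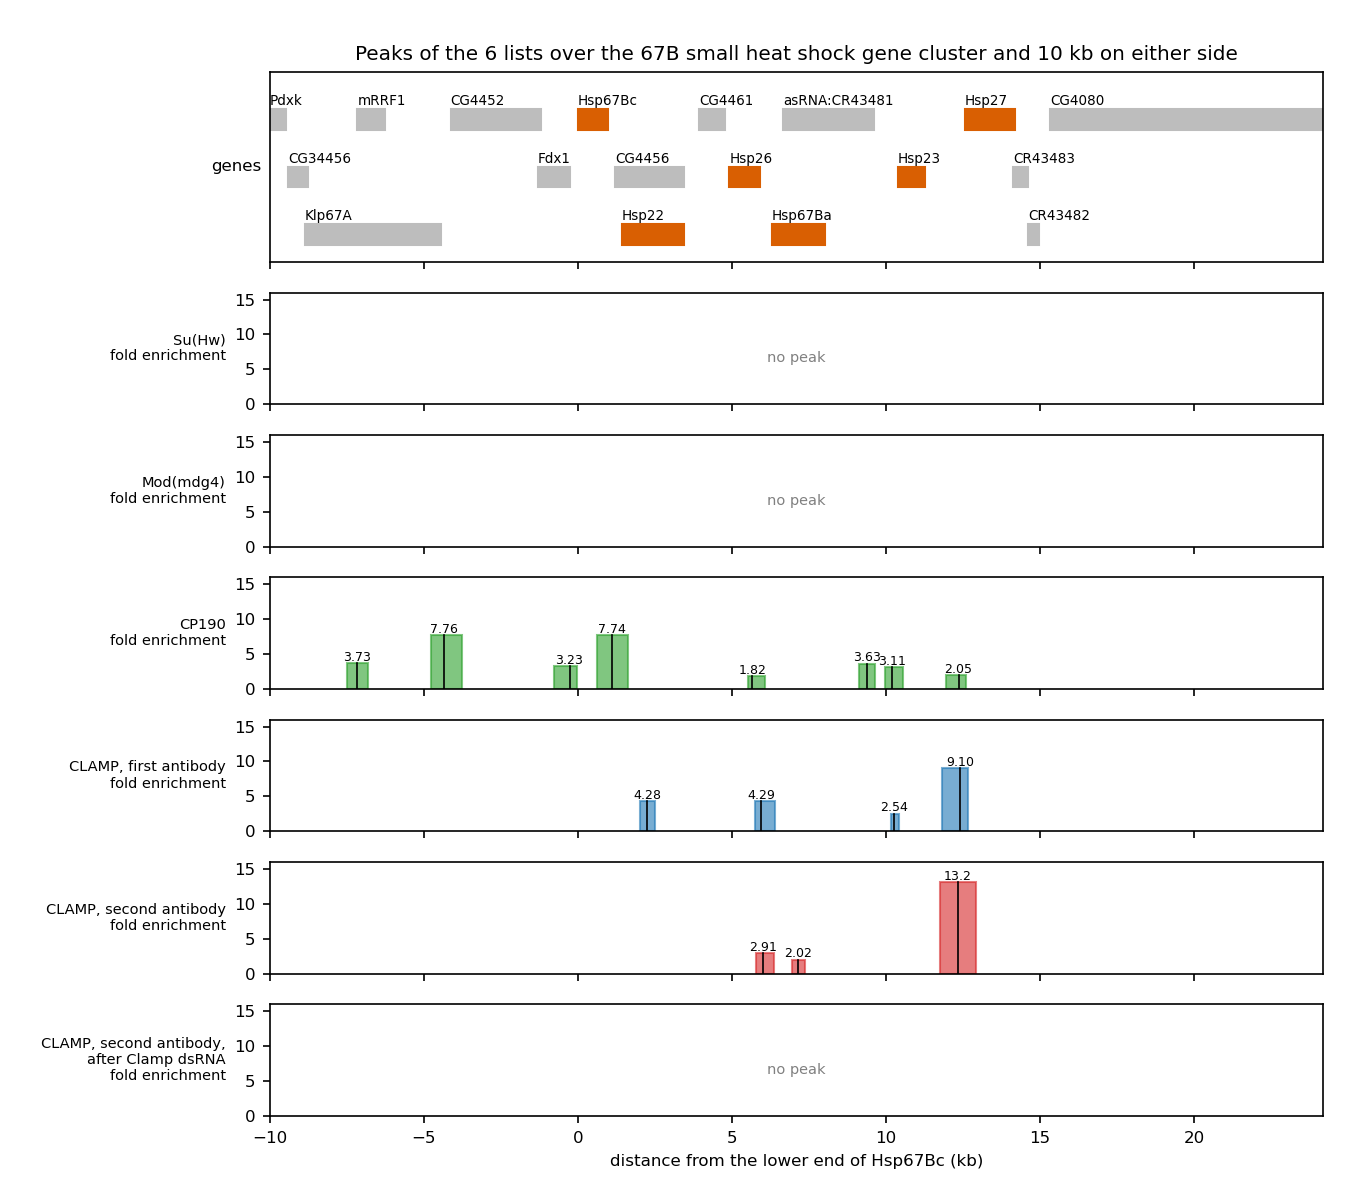
Genes (top; orange, the 6 small heat shock genes; grey, other genes) and peaks of the 6 lists against the distance in kb from the lower end of Hsp67Bc. Boxes span each peak, their height and the printed value give the authors' fold enrichment, and black lines mark summits. The tallest CLAMP peaks stand just before Hsp27 with both antibodies (9.10-fold and 13.2-fold), where the CP190 peak is 2.05-fold.

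The strongest CLAMP site lay between Hsp23 and Hsp27. Hsp27 (3L, 9384063 to 9385694) encodes a chaperone found mainly in the nucleus. The first antibody had a peak at 9383311 to 9384172 with 9.10-fold enrichment and a -log10 q of 104.8. The second had a peak at 9383258 to 9384418 with 13.2-fold enrichment and a -log10 q of 218.7. Both stood high in their own lists: 7.15% of first-antibody peaks and 6.48% of second-antibody peaks were at least as strong. The summits lay 158 and 229 bases below the lower end of Hsp27, and 1140 and 1069 bases above the upper end of Hsp23, outside any annotated gene. Lower and upper here mean smaller and larger coordinates, because the gene table gives no strand. A CP190 summit stood between both CLAMP summits, 198 bases from Hsp27, but it was weak at 2.05-fold, and 92.3% of CP190 peaks were at least as strong. CP190 was present at 187 of the 250 second-antibody peaks at least as strong as this one (74.8%), with a median of 4.78-fold. At 17 of those 187 (9.09%), this one included, CP190 was as weak as here or weaker. With the first antibody, CP190 was present at 259 of 384 such peaks (67.4%), with a median of 4.11-fold. At 35 of those 259 (13.5%) it was as weak as here or weaker. The remaining strong peaks of either antibody had no CP190 peak, so weak or absent CP190 was not rare among them.

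The second CLAMP site of the cluster filled the short interval between Hsp26 and Hsp67Ba. Hsp26 (9376418 to 9377427) encodes a cytosolic chaperone, and Hsp67Ba (9377802 to 9379534) a less studied member of the family. Only 374 bases separate these genes. The first-antibody summit lay 35 bases past the upper end of Hsp26 and 340 bases before Hsp67Ba, with 4.29-fold enrichment. The second-antibody summit lay 90 and 285 bases from the same ends, with 2.91-fold enrichment. The ranks differed between antibodies: 30.1% of first-antibody peaks and 63.1% of second-antibody peaks were at least as strong. The antibodies' summits lay 55 bases apart here and 71 bases apart at Hsp27, against a median of 60 bases over the 3505 first-antibody peaks that overlapped a second-antibody peak. CP190 had its weakest peak of the region here. Its summit lay inside Hsp26, 258 bases from the upper end and 293 bases from the first-antibody summit, with 1.82-fold enrichment, and 97.1% of CP190 peaks were at least as strong. From Hsp67Ba the same CP190 summit was 633 bases away.

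The other CLAMP peaks were each seen with 1 antibody. At Hsp23 (9381882 to 9382765), which encodes another cytosolic chaperone, the first antibody had a narrow peak of 265 bases with 2.54-fold enrichment, and its summit lay 110 bases below the lower end of the gene. It sat wholly within a CP190 peak of 3.11-fold, whose summit lay 182 bases from Hsp23. The second antibody had no peak there, and its nearest summit to Hsp23 was the one before Hsp27, 1069 bases away. A first-antibody peak of 4.28-fold had its summit inside Hsp22 (9372931 to 9374964), which encodes the chaperone of the mitochondrial matrix. That summit lay 817 bases from the lower end and also inside CG4456. CG4456, for which the gene table lists the synonym Hsp67Bb, spans 9372722 to 9374964 and shares its upper end with Hsp22. Neither CP190 nor the second antibody had a peak at that position. A second-antibody peak of 2.02-fold had its summit inside Hsp67Ba, 839 bases from the lower end, where the antisense RNA gene asRNA:CR43481 overlaps. No other list had a peak there, and 92.0% of second-antibody peaks were at least as strong.

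CP190 followed another order. Its strongest peak of the cluster (9372141 to 9373132, 7.74-fold, -log10 q of 138.8) lay between Hsp67Bc and Hsp22. Hsp67Bc (9371511 to 9372497) encodes a chaperone that works with the co-chaperone Starvin in protein quality control and autophagy. The CP190 summit was 107 bases above Hsp67Bc, 327 bases below Hsp22 and 118 bases below CG4456. No CLAMP peak overlapped it. The nearest CLAMP summits to Hsp67Bc were 1251 bases away with the first antibody and 5020 bases away with the second. Even this CP190 peak was of middle rank, with 34.7% of CP190 peaks at least as strong. A further CP190 peak of 3.63-fold lay at the upper end of asRNA:CR43481, 988 bases below Hsp23. Of the sites in the cluster, CP190 ranked the one between Hsp67Bc and Hsp22 highest, where CLAMP had no peak, and the site before Hsp27, which CLAMP ranked highest with both antibodies, second from last among its 8 peaks of the region.

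**Figure D2:**
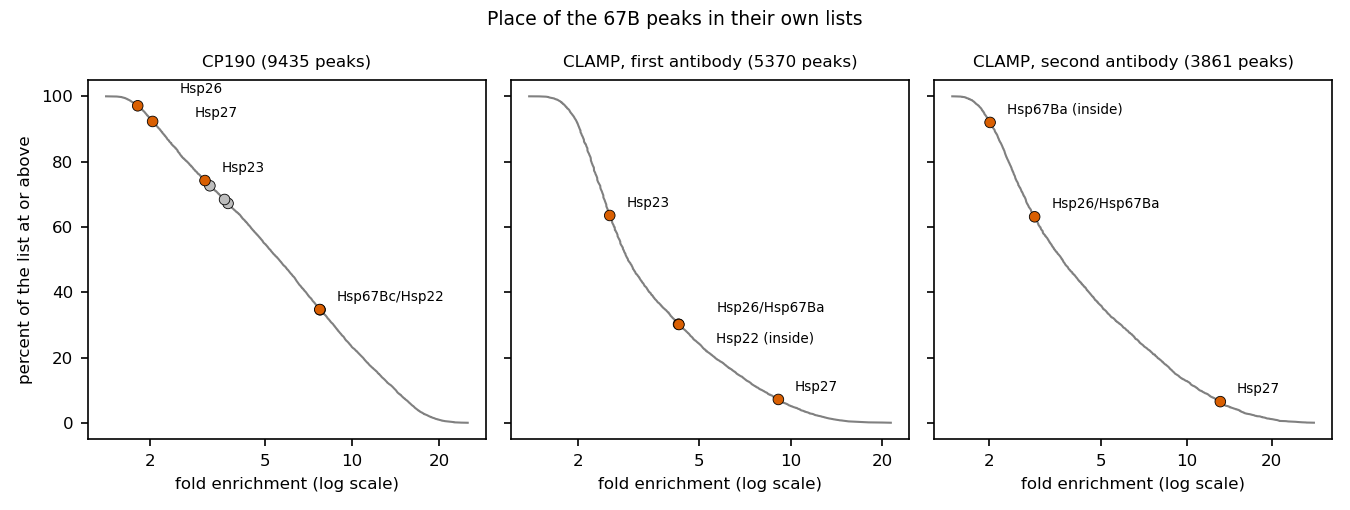
Percent of each list's peaks on the arms that are at least as strong (vertical axis) against fold enrichment on a log scale (horizontal axis), for CP190 and both CLAMP antibodies. The grey line holds all peaks, orange points are the labelled peaks at or in the 6 genes, and light grey points are other peaks of the region. The light grey points include the CP190 peak at Fdx1, whose summit lay 275 bases from Hsp67Bc. The peak before Hsp27 sits at 7.15% and 6.48% in the CLAMP lists and at 92.3% in the CP190 list.

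Counted by gene, a summit within 500 bases of either end was called a summit at the gene. The first CLAMP antibody had one at 4 of the 6 genes (Hsp26, Hsp67Ba, Hsp23 and Hsp27), where 12.8% of all genes had one. The second had one at 3 of 6 (Hsp26, Hsp67Ba and Hsp27), where 10.8% of all genes had one. Hsp26 and Hsp67Ba share 1 summit in each list, so these counts rest on 3 and 2 CLAMP sites. CP190 had a summit at 5 of 6, all but Hsp67Ba, where 44.4% of all genes had one, and Hsp67Bc and Hsp22 share 1 summit. Hsp67Bc had a further CP190 summit 275 bases below its lower end. Neither Su(Hw) nor Mod(mdg4) had a summit at any of the 6, against 4.87% of all genes, and none had a CLAMP summit after dsRNA, against 0.560%. At such low shares a count of 0 among 6 genes does not set them apart. At Hsp26 and Hsp27 both CLAMP antibodies and CP190 were present together, as at 5.90% of all genes. Within 500 bases of an end, CP190 was present without CLAMP at Hsp67Bc and Hsp22, as at 32.3% of all genes. The first-antibody summit inside Hsp22, 817 bases from its lower end, lay beyond this limit. Among distances from the 6 genes, the CLAMP or CP190 summit just within the limit lay at 340 bases (first antibody, Hsp67Ba) and the one just beyond it at 633 bases (CP190, Hsp67Ba).

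**Figure D3:**
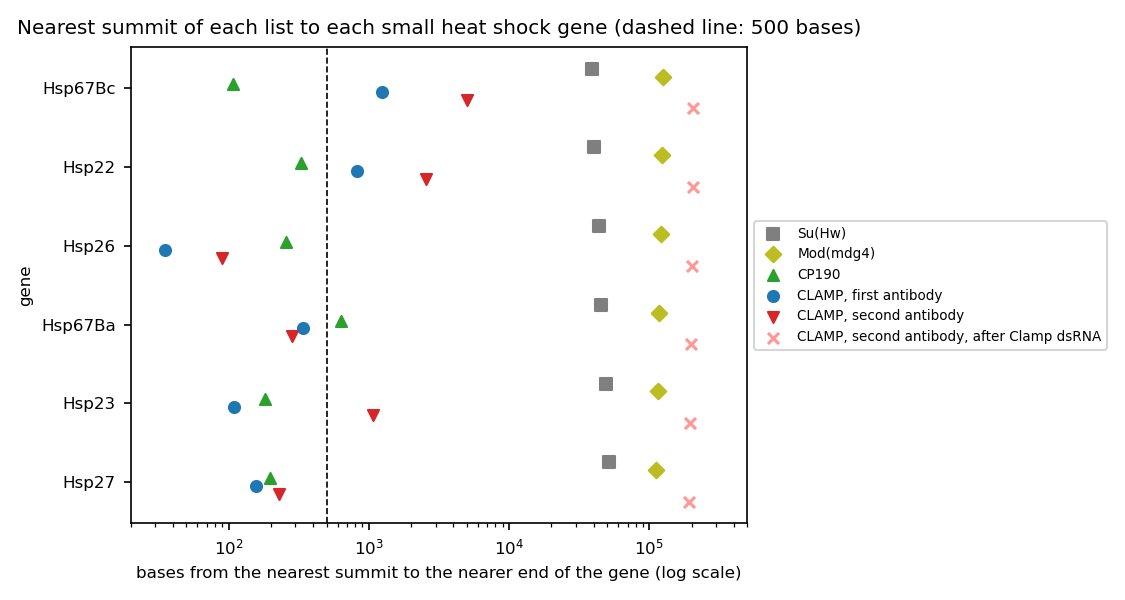
Bases from the nearest summit of each of the 6 lists to the nearer end of each gene, on a log scale, with a dashed line at 500 bases. CP190 and CLAMP summits lie from 35 to 5020 bases away, while those of Su(Hw), Mod(mdg4) and CLAMP after dsRNA lie from 39.0 kb to 205.8 kb away.

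Of the 12 other genes that touched the region, 8 had a CP190 summit at an end, where 44.4% of all genes had one. These 8 rest on 7 summits, and the one at CG4456 is also counted at Hsp67Bc and Hsp22. The one at Fdx1 also lay 275 bases below the lower end of Hsp67Bc. The 8 genes included Klp67A, a kinesin gene, and CG4452, which share a peak of 7.76-fold, and Fdx1, a ferredoxin gene, with 3.23-fold. The CP190 summits at Pdxk and CG4080 lay beyond the region, 11.1 kb below and 13.5 kb above the cluster. The first CLAMP antibody had a summit at none of the 12, and the second at 1, asRNA:CR43481 (2.02-fold). With CLAMP at 12.8% and 10.8% of all genes, such CLAMP counts do not set the neighbours apart. The nearest CLAMP peaks beyond the region lay 13.8 kb below the cluster inside UGP (3.64-fold and 3.24-fold) and 16.3 and 16.4 kb above it inside eIF4E1, a translation initiation factor gene (11.5-fold and 12.1-fold). The nearest Su(Hw) summits lay 39.0 kb below and 86.6 kb above the cluster, and the nearest Mod(mdg4) summits 151.3 kb below and 112.0 kb above.

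The number of CP190 summits in the stretch was in the upper range of the arms. When the arms were divided end to end into 3911 windows of the same length (34184 bases), 1.97% of them held at least the 8 CP190 summits found here. At least 4 first-antibody summits were held by 10.6%, and at least 3 second-antibody summits by 12.9%. Windows with at least 1 summit made up 51.3% for Su(Hw), 26.1% for Mod(mdg4) and 10.9% for CLAMP after dsRNA, so a window with none was common in these lists. These shares describe the arms and are no test. The windows were not matched for number of genes, and 18 genes touched the stretch here. Of the 8 CP190 peaks, 5 touched the cluster itself, and 2 of the 8 were among the 50% of CP190 peaks with the largest -log10 q. Within the cluster itself, peaks covered 23.4% of the 14184 bases for CP190, 15.9% for the first CLAMP antibody and 15.2% for the second. Coverage over the arms was not computed, so these shares cannot be called high or low. Median peak widths over the arms also differed (846, 511 and 785 bases), so the shares are not compared between lists.

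CLAMP and CP190 peaks overlapped at 3 of the 4 first-antibody peaks of the cluster, namely those at Hsp26, Hsp23 and Hsp27. Over the arms, 49.4% of first-antibody peaks overlapped a CP190 peak. The count of 3 fell to 0 when only the 50% of peaks with the largest -log10 q in each list were used. With the second antibody, 2 of 3 did (Hsp26 and Hsp27), against 57.8% over the arms. Seen from CP190, 3 of the 8 peaks of the region overlapped a first-antibody peak and 2 a second-antibody peak, against 26.8% and 24.3% over the arms. Such small counts do not set the cluster apart from other sites. CP190 and first-antibody summits lay 40 bases apart at Hsp27, 72 at Hsp23 and 293 at Hsp26, against a median of 138 bases over 2652 overlapping peaks.

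After Clamp dsRNA, none of the 3 second-antibody peaks of the cluster had a counterpart. The peak before Hsp27 (13.2-fold in mock cells), the one between Hsp26 and Hsp67Ba (2.91-fold) and the one inside Hsp67Ba (2.02-fold) were all without a peak in the dsRNA list. The nearest dsRNA summits were 265.2 kb below the cluster, inside bol, and 192.6 kb above it, inside CG42673. Over the arms, 2.43% of the 3861 mock peaks of this antibody overlapped a dsRNA peak. The dsRNA list was weak as a whole. Its median was 2.46-fold and its strongest peak 5.95-fold, against 3.64-fold and 28.2-fold in the mock list of this antibody. Of the 1653 dsRNA peaks, 119 (7.20%) overlapped a mock peak of this antibody and 988 (59.8%) one of the first antibody. Among the 164 mock peaks within 10% of the strength of the Hsp27 peak, 7 (4.27%) overlapped one. Among the 250 at least as strong, 48 (19.2%) did. The Hsp27 site thus shared the outcome of most mock peaks of its strength. The dsRNA libraries carry the library numbers 46 and 47, and the mock libraries of the same antibody 31 and 32. With 1 pooled list per condition, the treatment, the library set and the unknown depth cannot be told apart.

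Other heat shock genes were compared as lists. A further 7 genes were listed as small heat shock genes, and the domains of their proteins were not checked. No CLAMP antibody had a summit at any of the 7, which at the shares of all genes given above is no departure. This list includes CG4456 and CG4461 inside the cluster and l(2)efl, a relative of mammalian alpha-B crystallin. CG4461 (9375430 to 9376293), listed with the synonym Hsp20, stands in the interval between Hsp22 and Hsp26, which held no summit of any list. CP190 had a summit at 2 of the 7, CG4456 (7.74-fold, the peak shared with Hsp67Bc and Hsp22) and CG14207 (3.75-fold). Of 19 other heat shock and chaperone genes, 7 (36.8%) had a first-antibody summit and 6 (31.6%) a second-antibody summit, against 12.8% and 10.8% of all genes. CP190 had a summit at 10 (52.6%), near its share of 44.4% of all genes, Mod(mdg4) at 1 (Hsp70Ba) and Su(Hw) at none.

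Among those, Hsp68 and Hsp70Ba, heat-inducible genes of the Hsp70 family, shared with Hsp27 a high place in both CLAMP lists and a low place in the CP190 list. At Hsp68 (11.9-fold and 12.1-fold CLAMP, 2.30-fold CP190), 2.61% and 8.29% of CLAMP peaks were at least as strong, and 86.9% of CP190 peaks. At Hsp70Ba (6.94-fold and 9.39-fold CLAMP, 2.93-fold CP190), the shares were 14.0% and 14.3% for CLAMP and 76.4% for CP190. Unlike Hsp27, Hsp70Ba also had a Mod(mdg4) summit at an end, and Hsp68 a CLAMP summit after dsRNA. Of the Hsp70 copies compared, only Hsp70Ba had a CLAMP or CP190 summit at an end. Hsp70 copies are nearly identical, so reads may be split or misplaced among them.

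DnaJ-1, Droj2, Hsp83 and Hsc70-4 stood higher in the CP190 list than in the CLAMP lists. From 27.4% (DnaJ-1) to 37.5% (Hsc70-4) of CP190 peaks were at least as strong as theirs, and from 58.9% (Hsp83) to 96.6% (Hsc70-4) of CLAMP peaks in the lists where they had one. At Hsp110 the shares were 45.6% for CP190 and 31.2% and 35.5% for CLAMP. At Hsc70-3 they were 91.2% for CP190 and 63.5% for the first CLAMP antibody, so it stood lower in the CP190 list. Hsp23 stood low in both lists where it had a peak, with 74.2% of CP190 and 63.5% of first-antibody peaks at least as strong. These genes were singled out after their values were seen, and no difference between them was tested.

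**Figure D4:**
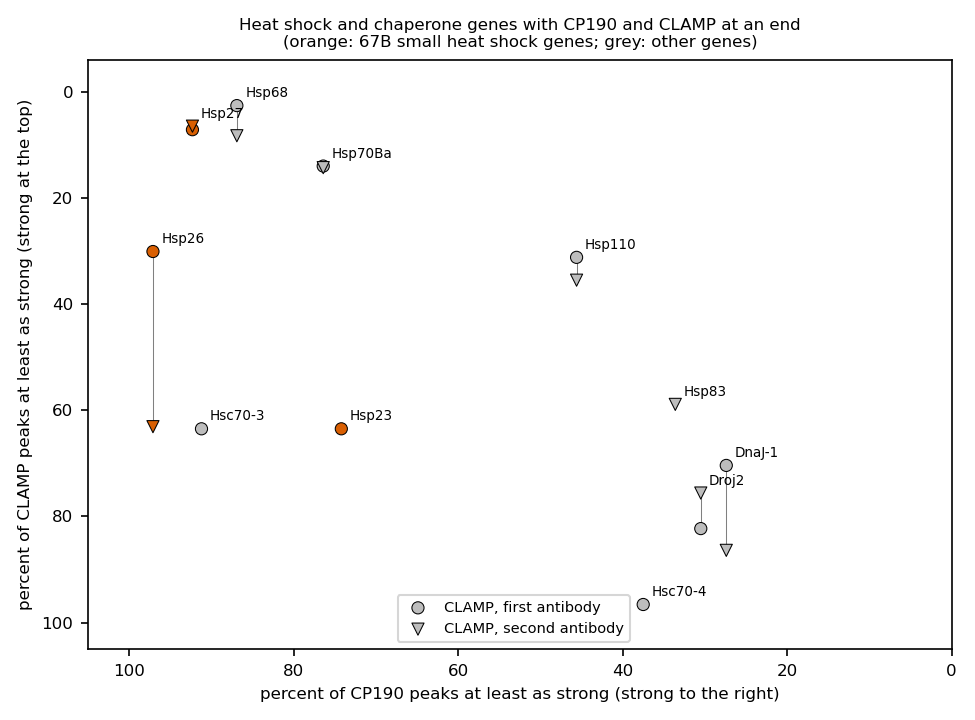
Percent of CLAMP peaks at least as strong (vertical axis, strong at the top) against percent of CP190 peaks at least as strong (horizontal axis, strong to the right), at heat shock and chaperone genes with summits of both proteins within 500 bases of an end. Circles are the first and triangles the second CLAMP antibody, joined by a line for each gene, with the 67B genes in orange. Hsp27 and Hsp68 stand at the upper left, at 92.3% and 86.9% of the CP190 list.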

How the data were processed

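Each deposited list holds the peaks of 1 antibody and treatment, called on pooled libraries per the word pooled in its row names. The submitters' processing notes name MACS2 2.1.0.20150731, Picard, SAMtools 1.2, Bowtie2 2.2.9 and cutadapt 1.8.1, and build dm6. Settings of these tools, and how peaks were thresholded, were not given in sources used here. Fold enrichment, as deposited, is a ratio, and the deposited -log10 q (a q-value per peak) was quoted and used to pick the better-ranked peaks. The deposited score equals 10 times the -log10 q rounded down in every row, and was not used. The 6 columns of -log10 p were not used either. Read depth is unknown.

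Summits were set against gene ends of a RefSeq gene table (Release 6 plus ISO1 MT, the same assembly), which has no strand, exon or sequence. Overlap meant at least 1 shared base. Distances were computed with Python 3.11.15, pandas 2.3.3 and numpy 2.4.6, and the counting was tested on planted summits. All 6 genes, their neighbours and every peak of the region were named. The 6 genes were chosen by name and not by their values, but genes and lists were chosen with earlier results of these data known. The planned motif and protein comparisons were not made, since sequences were not used here. Of 20 listed chaperone genes, 19 matched by symbol or synonym.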

Additional observations from a re-analysis of the deposited data

How the results depend on the processing

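Of 60 values under other settings, 49 stayed within 1.5 times the reported count. These 49 include every count of 0 for Su(Hw), Mod(mdg4) and CLAMP after dsRNA, which stayed 0 under all settings tried. Stricter settings could not move a 0. The wider ones, 1000 bases and a flank of 20 kb, could not either, because the nearest summit of these lists lay 39.0 kb from the cluster. The counts of 0 therefore say nothing on how stable the results are. All 11 values that moved belonged to counts above 0. Within 200 bases of a gene end, CP190 had a summit at 3 of the 6 genes and the second CLAMP antibody at 1 (Hsp26). With the 50% of peaks with the largest -log10 q, CP190 kept 2 genes (Hsp67Bc and Hsp22) and the second antibody 1 (Hsp27), CP190 had 2 peaks and the second antibody 1 in the region, and first-antibody peaks overlapped 0 CP190 peaks and 1 second-antibody peak. With a flank of 20 kb the second antibody had 5 peaks. For the dsRNA comparison, alternatives chosen after seeing the data gave 5 mock peaks without a counterpart with that flank and 1 among the better-ranked mock peaks. The changes within 200 bases follow from the shorter distance limit on the same peaks, and the others from fewer or more peaks counted. Distances to gene starts were not run, since strand was not given. No paired analysis was possible because each list pools its libraries.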
